A study of Mus musculus with 6 samples.

Results

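miRNAs encoded at the imprinted loci Gnas, Mest, Igf2 and H19 were described in prefrontal cortex tissue of aged mice, comparing a model of postoperative neurocognitive disorder (PND) with untreated controls (CON). The members were chosen by name, and 9 mature miRNAs were named, namely both arms of miR-296, miR-335, miR-483 and miR-675 and the 5p arm of miR-298. Of these, 7 had a row among the 1189 entries of the data, and both arms of miR-675, the miRNA of H19, were not analysed here. The opposite arm miR-298-3p, which also had a row, was added for the comparison of arms and is not counted among the 7.

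The study asked which small RNAs differ in this tissue after anesthesia and surgery. Each of 6 mice, 3 per group, gave 1 small RNA library. All 6 were male wild type C57BL/6 mice of 18 months by their recorded age, while the sample names carry 17 months. PND mice had breathed 1.5% isoflurane for 30 min before exploratory laparotomy, a 30 min operation under the same anesthetic, and their incisions were treated with lidocaine cream and povidone iodine. CON mice had no operation and no anesthesia before the tissue was taken, so anesthesia, surgery and wound care cannot be told apart in this design. By the study's methods, the mice went through open field, fear conditioning with foot shock and Barnes maze tests. The tissue was taken days after the operation, following the last maze test, under deep isoflurane anesthesia in both groups. The whole prefrontal cortex was used, and fewer cells that make a miRNA cannot be told apart from less of the miRNA per cell.

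In genomic imprinting, a gene is transcribed mainly from the chromosome copy inherited from 1 parent, under the control of DNA methylation set in the germ line. Gnas encodes the stimulatory G protein alpha subunit, and the miRNAs next to it, miR-296 and miR-298, come from the paternal copy. Mest, a paternally expressed gene of the hydrolase fold family, carries miR-335 in an intron. The paternally expressed growth factor gene Igf2 carries miR-483, and the maternally expressed long non-coding RNA H19 is the precursor of miR-675. A miRNA hairpin is cut into a 5p and a 3p arm. The arm that is loaded into an Argonaute protein recognises its target mRNAs mainly through the seed, which is made of bases 2 to 8.

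The mature sequences of the 7 members and of miR-298-3p, from RefSeq on GRCm38.p6, are given first because the seed defines what each arm can bind and because the arms of a hairpin are compared below. Capitals mark the seed.
mmu-miR-296-5p: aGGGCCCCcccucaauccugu
mmu-miR-296-3p: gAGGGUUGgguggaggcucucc
mmu-miR-298-5p: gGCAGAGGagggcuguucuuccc
mmu-miR-298-3p: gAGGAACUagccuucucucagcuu
mmu-miR-335-5p: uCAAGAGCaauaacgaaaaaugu
mmu-miR-335-3p: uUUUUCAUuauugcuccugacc
mmu-miR-483-5p: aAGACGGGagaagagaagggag
mmu-miR-483-3p: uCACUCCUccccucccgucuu

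The 8 seeds all differed, and none of them was shared with another of the 997 rows whose name matched a RefSeq mature sequence. The lengths ran from 21 to 24 bases. The Gnas arms other than miR-298-3p were rich in G and C, with a GC content of 66.7% for miR-296-5p, 68.2% for miR-296-3p and 65.2% for miR-298-5p. That of miR-298-3p was 50%. The Mest arms lay at the other end, with 30.4% for miR-335-5p and 36.4% for miR-335-3p. For the 312 matched miRNAs that averaged 10 CPM or more (reads per 1000000 reads), the median GC content was 47.8% and the quartiles were 40.9% and 54.5%. Both Mest arms and miR-483-3p begin with U, as did 44.6% of these 312.

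The hairpins of miR-296 (chr2:174267047-174267125) and miR-298 (chr2:174267504-174267585) lie on the minus strand of GRCm38, with 378 bases between them. In GENCODE M21 neither lies inside another annotated gene. The nearest end of Nespas, the antisense transcript of the Gnas locus, is 14112 bases from the miR-296 hairpin. The miR-335 hairpin (chr6:30741299-30741396, plus strand) is intronic in all 7 Mest transcripts that span it. The miR-483 hairpin (chr7:142654924-142654996, minus strand) is intronic in all 8 transcripts that span it, which belong to Igf2 and Gm49394. The miR-675 hairpin (chr7:142577064-142577147, minus strand) lies in an exon of 3 of the 4 H19 transcripts that span it, and 77776 bases separate it from the miR-483 hairpin.

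The 6 libraries held between 14849471 and 19471251 reads, so that 3 reads, taken here as the floor, were worth 0.154 to 0.202 CPM. Each PND library was deeper than each CON library. As markers of neurons, 4 miRNAs (miR-124-3p, miR-9-5p, miR-128-3p and miR-132-3p) took between 28.1% and 37.3% of the reads. Most of this was miR-128-3p (mean 222310 CPM) and miR-9-5p (83699 CPM), with miR-124-3p at 5317 and miR-132-3p at 2653 CPM. The list held no miRNA chosen to mark a brain region, so it does not check the prefrontal cortex label. The library CON 2 stood apart. Over the 360 named miRNAs that averaged 10 CPM or more it was the lowest of the 6 libraries for 244, its median log2 difference from the median of the other 5 was -0.31, and miR-128-3p took 29.2% of its reads against 17.6% to 23.2% in the others. The fold changes and locus sums of the members and the arm shares of their hairpins are therefore also given without CON 2. The library CON 1 held 1646 CPM of 8 epithelial miRNAs (the miR-200 family and the miR-183 cluster) against 67.0 to 198 CPM in the other 5.

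The order of the levels was led by Mest, followed by Gnas and, far below, by Igf2. In each of the 6 libraries miR-335-3p exceeded miR-335-5p, which exceeded miR-298-5p, which exceeded miR-296-5p, which exceeded miR-296-3p, which exceeded miR-483-5p. By the mean over the 6 libraries, miR-335-3p ranked 70 among the 1189 entries, miR-335-5p 140, miR-298-5p 226, miR-296-5p 306, miR-296-3p 320 and miR-483-5p 633. The steps between neighbours were not equal. miR-335-5p was 3.98 to 5.65 times the level of miR-298-5p, whereas miR-296-5p was only 1.08 to 1.54 times that of miR-296-3p, and the ranges of these last 2 over the libraries overlapped. CPM counts mature molecules of nearly equal length, but adapters join to some sequences better than to others, which limits comparisons between miRNAs more than those between libraries.

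**Figure D1:**
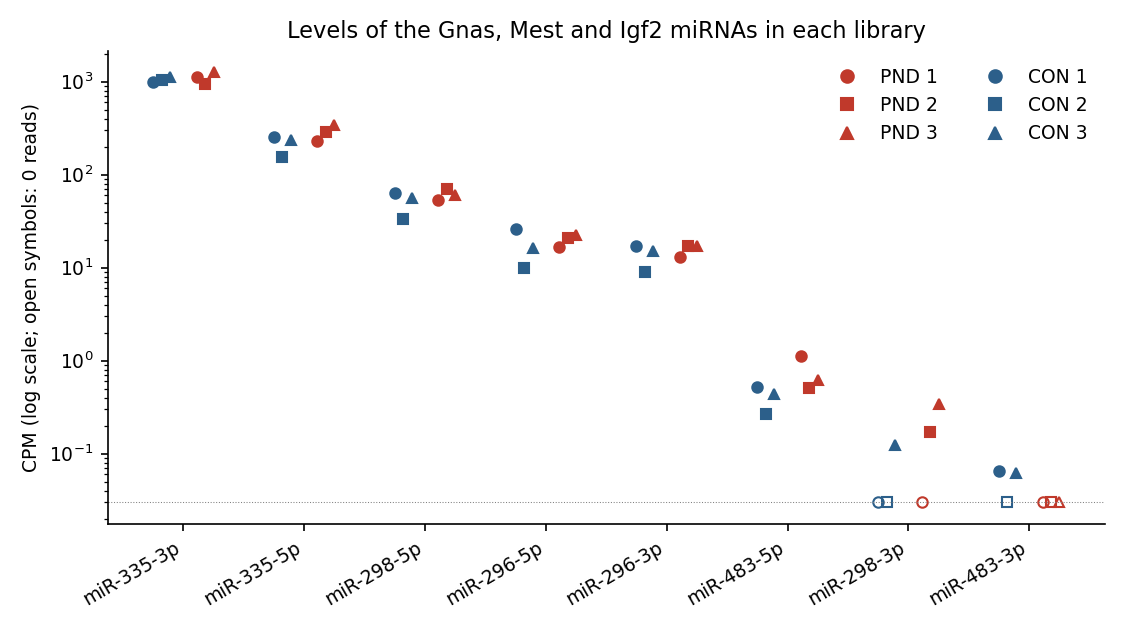
Levels of the 7 members and of miR-298-3p in CPM on a log axis, 1 point per library, with PND in red, CON in blue and the replicate number given by the symbol. Open symbols on the dotted line stand for 0 reads. miR-335-3p lies between 935 and 1258 CPM, miR-483-3p has at most 1 read in any of them, and the points of the groups overlap for each miRNA.

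miR-335, reported in cancer as a suppressor of metastasis, was the most abundant miRNA of these loci. miR-335-3p measured 1109, 935 and 1258 CPM in the PND libraries 1 to 3 and 988, 1026 and 1122 CPM in the CON libraries 1 to 3. The groups overlapped, and the highest and the lowest library were both PND libraries. Its mean was 1100 ± 162 CPM in PND and 1045 ± 69.1 CPM in CON (SD, n = 3 each). In limma, fitted over all entries on log2(CPM + 1), the log2 fold change was 0.07 (SE 0.13, 95% interval -0.23 to 0.37, adjusted p = 0.91). It was 0.05 without CON 2, -0.06 with TMM factors and -0.09 with DESeq2 size factors.

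miR-335-5p measured 230, 283 and 341 CPM in PND and 251, 153 and 238 CPM in CON. PND 2 and PND 3 exceeded every CON library, PND 1 lay below CON 1 and CON 3, and CON 2 was the lowest. The mean was 285 ± 55.6 CPM in PND and 214 ± 52.9 CPM in CON, a ratio of 1.33. The limma log2 fold change was 0.42 (SE 0.22, 95% interval -0.09 to 0.94, adjusted p = 0.77). Without CON 2 it was 0.20, and the ratio of means was 1.17.

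The arms of the Mest hairpin therefore did not vary alike between libraries. The coefficient of variation over the 6 libraries was 10.7% for miR-335-3p and 24.9% for miR-335-5p, against a median of 13.8% over the 360 abundant miRNAs. Without CON 2 these values were 11.7%, 16.9% and 10.01%. CON 2 held 92.5% of the median level of the other libraries for miR-335-3p and 61.2% for miR-335-5p. The share of the 5p arm in the reads of both arms, which does not depend on the scaling between libraries, was 17.2%, 23.2% and 21.3% in PND and 20.2%, 13.0% and 17.5% in CON. The Wilson 95% intervals of these shares were at most 1.15 percentage points wide and cover counting error only, so the libraries differed by more than counting error in both groups. The mean share was 20.6 ± 3.11% in PND and 16.9 ± 3.66% in CON (SD, n = 3 each). The difference of 3.67 percentage points gave p = 0.3 in the exact two-sided permutation test (0.53 after Benjamini-Hochberg adjustment over 4 hairpins), in which 3 against 3 libraries cannot go below 0.1. Without CON 2 the difference was 1.71 points.

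**Figure D2:**
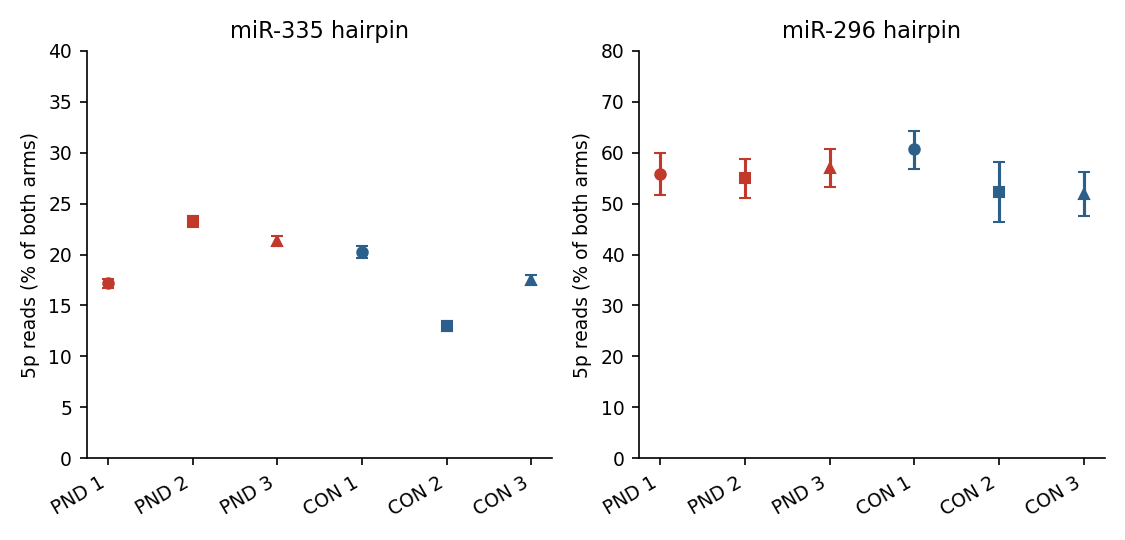
Share of the 5p arm in the reads of both arms (%, vertical axis from 0) for the miR-335 and miR-296 hairpins, 1 point per library with its Wilson 95% interval. For miR-335 the shares run from 13.0% in CON 2 to 23.2% in PND 2, and PND 1 lies below CON 1 and CON 3, so the groups overlap. For miR-296 they run from 52.0% to 60.6%, with both ends in the CON group.

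Wider ranges of the 5p share between libraries were seen in other hairpins, counting error included. Among 62 hairpins with a mean 5p share between 10% and 90% whose arms together averaged 10 CPM or more, the range of the share over the 6 libraries had a median of 8.03 percentage points, and the 10.2 points of miR-335 were the 17th widest. Counting error is larger where reads are few. For miR-296 the range was 8.67 points, with Wilson intervals up to 11.6 points wide, against at most 1.15 points for miR-335. The ranking therefore cannot show how common a spread beyond counting error is. CON 2 had the lowest 5p share in 29 of these 62 hairpins and the highest in 17. The groups did not overlap in 4 of the 62, of which 2 were higher in PND and 2 in CON, and neither miR-335 nor miR-296 was among them.

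At the Gnas locus, miR-298-5p and miR-296-3p followed each other more closely than miR-296-5p followed either. miR-298-5p, for which repression of beta-secretase has been described, measured 53.8, 69.3 and 60.4 CPM in PND and 63.0, 33.2 and 55.7 CPM in CON. CON 2 was the lowest library and the other 5 lay close together, with CON 1 second only to PND 2. The mean was 61.1 ± 7.77 CPM in PND and 50.6 ± 15.5 CPM in CON (SD, n = 3 each). The limma log2 fold change was 0.31 (SE 0.24, 95% interval -0.25 to 0.87, adjusted p = 0.77), and 0.04 without CON 2.

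miR-296-5p measured 16.5, 20.7 and 22.4 CPM in PND and 26.1, 9.83 and 16.4 CPM in CON. CON libraries were both the highest and the lowest of the 6. The limma log2 fold change was 0.27 (SE 0.32, 95% interval -0.47 to 1.0, adjusted p = 0.78), and it turned to -0.07 without CON 2. The highest value, in CON 1, stood in the library with the high level of epithelial miRNAs, whose part in the result was not tested.

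miR-296-3p measured 13.0, 16.99 and 16.88 CPM in PND and 16.96, 8.96 and 15.2 CPM in CON. Apart from CON 2, all libraries lay between 13.0 and 16.99 CPM. The limma log2 fold change was 0.21 (SE 0.24, 95% interval -0.35 to 0.78, adjusted p = 0.77), and it turned to -0.04 without CON 2. The miR-296 hairpin gave reads from both arms in similar amounts. Its 5p share was 55.8%, 55.0% and 57.0% in PND and 60.6%, 52.3% and 52.0% in CON, from between 279 and 696 reads per library. The groups differed by 0.97 percentage points (exact two-sided permutation test, p = 0.9). The difference was -0.36 points without CON 2 and 3.80 points without CON 1.

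The miR-298 hairpin was read almost only from its 5p arm. miR-298-3p had 0, 3 and 6 reads in PND and 0, 0 and 2 reads in CON, against 493 to 1219 reads of miR-298-5p per library. Only 2 libraries, PND 2 and PND 3, reached the floor of 3 reads for miR-298-3p, and the part of the greater depth of the PND libraries was not tested. The 5p share was at least 99.4% in every library, and the difference between groups was -0.19 percentage points (exact two-sided permutation test, p = 0.4) and -0.16 points without CON 2.

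The ratio of miR-298-5p to miR-296-3p, which lie in neighbouring hairpins, ran from 3.58 to 4.12. It was 4.12, 4.08 and 3.58 in PND and 3.71, 3.71 and 3.68 in CON (exact two-sided permutation test, p = 0.4). Counting error limits this ratio, as miR-296-3p had only 133 to 299 reads per library. CON 2 stood at the ratio of CON 1 and CON 3, although it held only 55.0% of the median of the other libraries for miR-298-5p and 53.1% for miR-296-3p. The ratio of miR-298-5p to miR-296-5p moved more, from 2.41 in CON 1 to 3.40 in CON 3, with a mean of 3.10 ± 0.35 in PND and 3.06 ± 0.56 in CON (SD, n = 3 each; exact two-sided permutation test, p = 1.0).

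**Figure D3:**
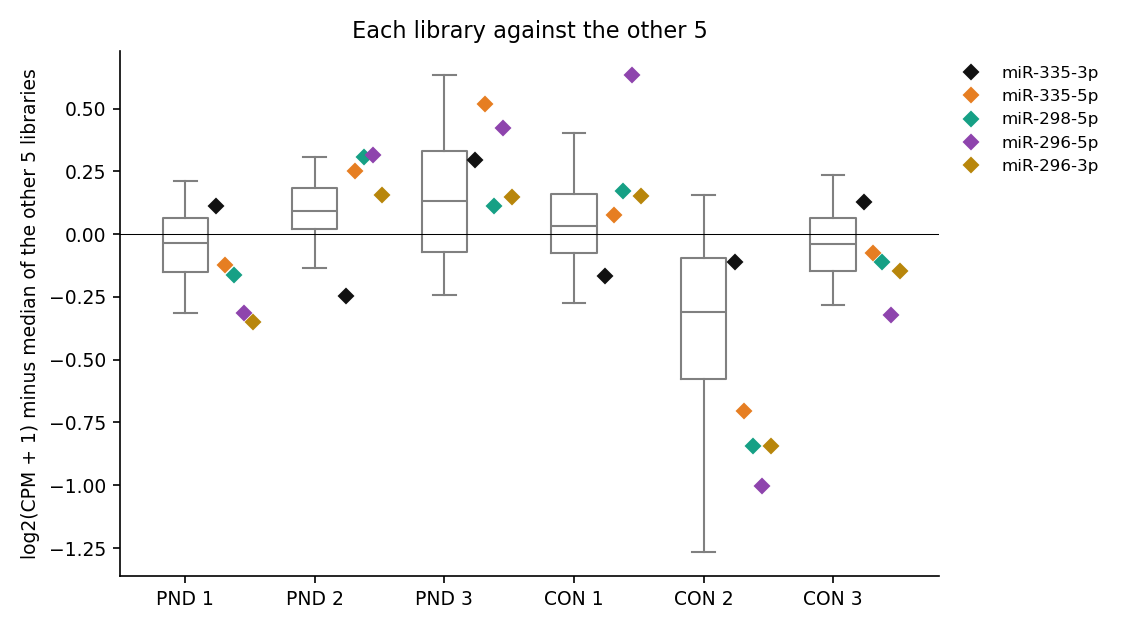
Difference of each library from the median of the other 5 libraries on the log2(CPM + 1) scale. Grey boxes show the quartiles and median over the 360 named miRNAs that averaged 10 CPM or more, and whiskers the 5th and 95th percentiles. Diamonds show the 5 members above this level. In CON 2 the median is -0.31, miR-296-5p lies at -1.0, miR-296-3p and miR-298-5p at -0.84, miR-335-5p at -0.71 and miR-335-3p at -0.11.

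miR-483, the miRNA of Igf2, was close to the limit of detection in this tissue. miR-483-5p had 22, 9 and 11 reads in PND (1.13, 0.51 and 0.62 CPM) and 8, 4 and 7 reads in CON (0.52, 0.27 and 0.43 CPM). PND 1 was the highest library, and PND 2 lay below CON 1. PND 1 was also the library with the highest sum of 4 red blood cell miRNAs, 101 CPM against 31.9 to 54.7 CPM in the others, and its miR-451a stood at 40.9 CPM against 0.62 to 3.08 CPM. The part of blood in the level of miR-483-5p was not tested. The limma log2 fold change was 0.30 (SE 0.15, 95% interval -0.06 to 0.66, adjusted p = 0.77). This scale understates changes at low levels, and the ratio of the group means in CPM was 1.84. PND 1 held 22 of the 42 PND reads. Without it the log2 fold change was 0.16 and the ratio 1.38, and without CON 2 they were 0.23 and 1.57. Pooled over the mice of a group, miR-483-5p stood at 0.767 CPM in PND (exact Poisson 95% interval 0.553 to 1.04, from 42 reads) and at 0.411 CPM in CON (0.248 to 0.642, from 19 reads). These intervals overlap and cover counting error only.

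miR-483-3p had 0 reads in all 3 PND libraries, where the floor of 3 reads over the pooled group is 0.0548 CPM, and 1, 0 and 1 reads in CON. All 6 libraries lay under the floor, so no difference could be detected at this depth. The 3p arm gave 2 of the 63 reads of the hairpin. No arm difference between groups could be read from these counts (exact two-sided permutation test of the 5p share, p = 0.4).

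Summed over the arms of a locus, the Mest miRNAs took 1339, 1218 and 1599 CPM in PND and 1238, 1179 and 1360 CPM in CON, which is between 0.118% and 0.160% of a library. The Gnas miRNAs, miR-298-3p included, took 83.3, 107 and 99.99 CPM in PND and 106, 52.0 and 87.4 CPM in CON. The Igf2 miRNAs took 1.13, 0.51 and 0.62 CPM in PND and 0.59, 0.27 and 0.50 CPM in CON. The groups overlapped at all 3 loci. The log2 ratio of the group means was 0.14 for Mest, 0.24 for Gnas and 0.74 for Igf2. The exact two-sided permutation tests gave p = 0.5, 0.6 and 0.2, each 0.6 after Benjamini-Hochberg adjustment over the 3 loci. These ratios moved with single libraries. Without CON 2 the log2 ratio was 0.0011 for Gnas, 0.09 for Mest and 0.47 for Igf2. Without PND 3 that of Mest was 0.02, and without PND 1 that of Igf2 was 0.33.

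None of the 7 members was called in the comparison of PND with CON. By limma with Benjamini-Hochberg adjustment over all 1189 entries, 5 entries, or 0.421%, had an adjusted p under 0.05, and none of these 5 carried a miRBase name. At an unadjusted p under 0.05, 0 of the 7 members passed, against 4.04% of all entries that were higher in PND and 1.09% that were higher in CON. edgeR and DESeq2 on the recovered reads also called 0 of the 7 at an unadjusted p under 0.05. The limits used by the study are an unadjusted p under 0.05 with an absolute log2 fold change above 1. In the limma fit on log2(CPM + 1), 0 members and 0.0841% of the entries passed them. This is not the study's own count, for which it names edgeR beside limma and fold changes from TPM. The same limits were passed by 32 entries in edgeR and 11 in DESeq2. In limma they were passed by 22 with a pseudocount of 0.1 CPM and by 0 without the trend. The groups overlapped for all 7 members, while over all entries they did not overlap with PND higher in 7.91% and with CON higher in 2.02%.

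Of the 7 log2 fold changes 6 were above 0, as were 776 of the 1189 entries and 285 of the 360 abundant miRNAs (79.2%). The members had a median of 0.27 against 0.05 over all entries and 0.14 over the 360 abundant miRNAs. TMM factors lowered the last value by 0.12 to 0.02, and the median of the members to 0.15, with 5 of the 7 above 0. Without CON 2 the median was 0.04 for the members, with 4 of 7 above 0, and also 0.04 for the abundant miRNAs. CON 2 was the lowest library for 5 of the 7 members, namely miR-296-5p, miR-296-3p, miR-298-5p, miR-335-5p and miR-483-5p. It was also the lowest for 244 of the 360 abundant miRNAs (67.8%).

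**Figure D4:**
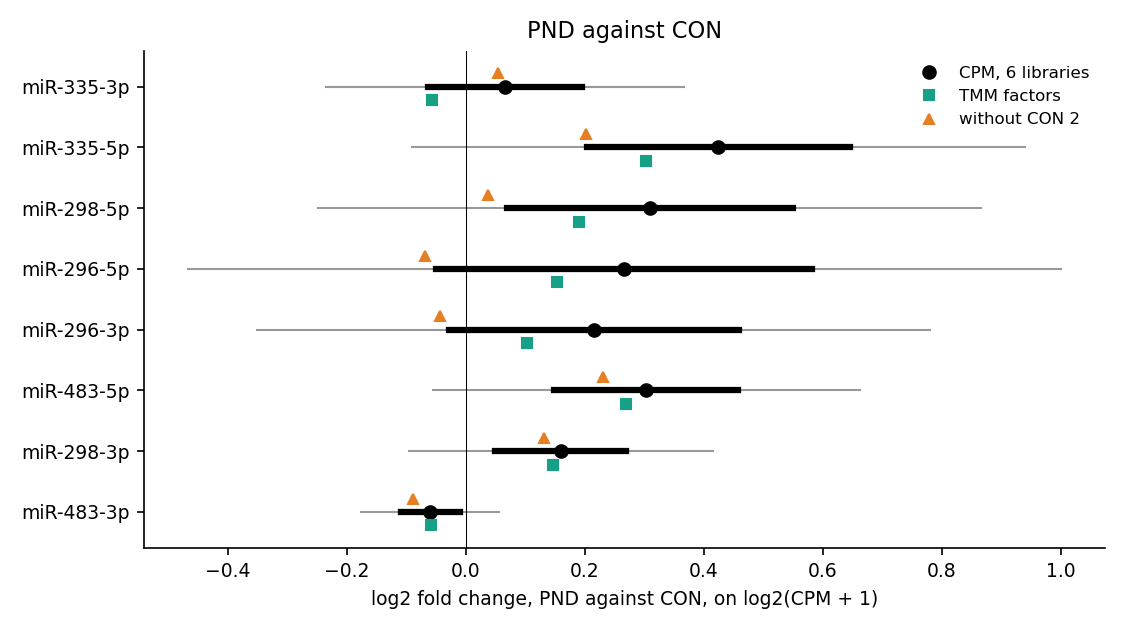
log2 fold change of PND against CON on the log2(CPM + 1) scale for the 7 members and miR-298-3p, from limma. Black points show the fit on all 6 libraries with thick bars for 1 SE and thin bars for the 95% interval, green squares the fit with TMM factors and orange triangles the fit without CON 2. Each 95% interval spans 0, and without CON 2 the estimates of miR-296-5p and miR-296-3p lie below 0.

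The miRNAs whose levels followed the leading arm of each locus most closely were found by the root mean square difference of centred log2(CPM + 1) over the 6 libraries, as a description. For miR-298-5p these were miR-140-5p (0.067), miR-296-3p (0.079) and miR-770-5p (0.093), where the median over 359 candidates was 0.27. miR-140-5p, for example, measured 205, 242 and 236 CPM in PND and 229, 135 and 216 CPM in CON, with the same low value in CON 2. For miR-335-3p the closest were miR-222-5p (0.078), miR-540-3p (0.11) and miR-199b-3p (0.11), where the median over 358 candidates was 0.22. miR-770-5p and miR-540-3p belong to another imprinted cluster, Dlk1-Dio3. None of the 3 closest to miR-335-3p stood as low in CON 2 as the Gnas miRNAs did. Of these, miR-222-5p measured 15.5, 14.1 and 16.7 CPM in PND and 13.3, 15.7 and 16.2 CPM in CON. The 5p and 3p arms of miR-335 were farther apart (0.33) than miR-335-5p was from miR-296-3p (0.14).

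A list of other imprinted miRNAs, 51 entries that comprise miR-184-3p and a selection of the Dlk1-Dio3 cluster (miR-770-5p is not among them), gave a far larger part of each library than the miRNAs described here, between 7.10% and 9.49% of the reads. Their sum ran from 85599 to 94912 CPM in PND and from 70975 to 87931 CPM in CON, with the lowest value in CON 2. By limma at an unadjusted p under 0.05, 2 of the 51 (3.92%) passed with PND higher, against 4.04% of all entries, and 0 passed with CON higher. None had an adjusted p under 0.05. Their median log2 fold change was 0.18, and 0.08 without CON 2. The most abundant were miR-127-3p, with a mean of 35278 CPM and a log2 fold change of 0.18 (SE 0.09), and miR-434-5p, with 7700 CPM and 0.18 (SE 0.16). The smallest p-values in each direction belonged to miR-544-5p, with a log2 fold change of 0.58 (SE 0.21) at a mean of 1.24 CPM, and to miR-370-3p, with -0.11 (SE 0.09). In 43 of the 51 the lowest library was CON 2, as in 5 of the 7 members and in 244 of the 360 abundant miRNAs (67.8%).

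Markers of other cell types in the dissected tissue were summed for each library, and none of these lists held a miRNA with an unadjusted p under 0.05 in limma. The 3 choroid plexus miRNAs ran from 775 to 805 CPM in PND and from 588 to 933 CPM in CON. The 2 endothelial miRNAs ran from 13326 to 13992 CPM in PND and from 11991 to 14372 CPM in CON. The 3 muscle miRNAs ran from 502 to 601 CPM in PND and from 413 to 593 CPM in CON, the 3 miRNAs of fibroblasts and meninges from 70.9 to 86.2 and from 61.3 to 77.0 CPM, and miR-122-5p of liver from 11.5 to 14.1 and from 11.1 to 14.0 CPM. The 8 epithelial miRNAs ran from 145 to 182 CPM in PND and from 67.0 to 1646 CPM in CON. Of these, miR-141-3p was at 3.80 CPM in CON 1, at 0 in CON 2 and at 0.051 to 0.062 CPM, under the floor, in the other libraries. The part of these cell types in the levels of the members was not tested.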

How the data were processed

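The miRNA members and lists were chosen with earlier results of these data known. The authors prepared small RNA libraries, cleaned the reads (fastx) and mapped them by Bowtie (0.12.2 in the submitters' processing notes, which also name the builds mm8 and mm9), took known miRNAs from miRBase and normalized them. The deposited values are CPM, which the study calls TPM. The miRBase release and the rule for reads with several matches are not given in the sources used here. The labels name a total RNA library kit and the study's methods a small RNA kit. In each library 100% of the values were whole reads within 0.05 reads, and the recovered reads gave depth, arm shares and the count tests. No 2 libraries were copies within counting noise.

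The main test was limma 3.58.1 (lmFit, eBayes with trend, R 4.3.3), fitted to log2(CPM + 1) for the 1189 entries, without a filter or covariates, PND against CON, with Benjamini-Hochberg adjustment. Locus sums and arm shares were compared by exact two-sided permutation tests over libraries, by listing all splits (numpy 2.4.6). Wilson and Poisson intervals came from scipy 1.17.1. Alternatives were a pseudocount of 0.1 CPM, filters on low values, no trend, TMM and DESeq2 size factors, edgeR 4.0.16 (quasi-likelihood) and DESeq2 1.42.0 on the recovered reads, the replicate number as a block, shares of pooled reads, and leaving out each library. The limma, edgeR and DESeq2 tests were also run on simulated counts with planted changes. The simulation held no shift such as that of CON 2, so it does not show how the tests behave on these libraries. Named were all members, the opposite arm, the marker lists, up to 4 other imprinted miRNAs (the 2 most abundant and the smallest p in each direction), and the 3 closest patterns for the leading arm of each locus with a mean of at least 10 CPM. Sequences came from RefSeq, for 8 of 8 names. Each library is taken as 1 mouse, as the labels and the study describe.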

Additional observations from a re-analysis of the deposited data

How the results depend on the processing

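The precision is limited by 3 libraries a group and, for miR-483, by 63 reads in all. Over the 15 alternatives to limma on all entries, 0 members passed an unadjusted p of 0.05 in each, including each library left out. The filters of at least 10 reads and of a mean of at least 1 CPM tested only 5 of the 7, without either arm of miR-483, and the other alternatives tested all 7. In these fits the lowest member p was 0.051 (miR-483-5p with the replicate block, adjusted p between 0.57 and 0.98 over all members and alternatives). The log2 fold change of miR-335-3p turned to -0.056 with TMM factors, -0.086 with DESeq2 size factors, -0.052 in edgeR and -0.085 in DESeq2, and ran from -0.036 to 0.18 with each library left out, below 0 without PND 3. Those of miR-296-5p and miR-296-3p ran from -0.068 to 0.59 and from -0.043 to 0.38, below 0 without CON 2. The cause of these reversals was not tested. The Mest sum had a log2 ratio of -0.018 with DESeq2 size factors (p = 0.8, exact permutation test). The 5p share of miR-296 differed by -0.017 percentage points with pooled reads and by -0.54 to 3.80 with each library left out, below 0 without CON 2 and without CON 3. The 3.80 was the difference without CON 1 (exact two-sided permutation test, p = 0.1, the smallest possible with these libraries).

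Over all entries, the count at an unadjusted p under 0.05 was 61, against 32 with at least 10 reads in 3 libraries, 16 with a mean of at least 1 CPM, 28 in DESeq2, and 31 to 91 with each library left out (31 without PND 2, 40 without CON 2, 91 without CON 1). The 5 entries with an adjusted p under 0.05 became 0 with either filter and without the trend, and 0 to 3 with each library left out. The 1 entry past both limits of the study became 22 with a pseudocount of 0.1 CPM, 0 without the trend, 32 in edgeR, 11 in DESeq2, and 0 to 1 with each library left out. edgeR and DESeq2 each had 5 entries with an adjusted p under 0.05.

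Same-numbered PND and CON libraries correlated at -0.13 to 0.51 in their deviations from the group means over 360 miRNAs. The mean was 0.17, against -0.08 for different numbers, and 2 of 3 PND libraries correlated best with their own number. These values do not settle whether the numbers are pairs, and the main test did not take them as such. The replicate block gave 56 entries at an unadjusted p under 0.05, 0 with an adjusted p under 0.05 and 2 past both limits. With the replicate block the log2 ratios were 0.30 for Gnas, 0.13 for Mest and 0.73 for Igf2 (exact sign-flip tests, p = 0.75, 0.25 and 0.25, where 0.25 is the smallest that 3 pairs allow). PND was the higher in 3 of 3 numbers for Mest and Igf2 and in 2 of 3 for Gnas.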
